A study of Mus musculus with 10 samples.

Results

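Pou5f1 (also called Oct4), Sox2 and Nanog encode the core transcription factors of mouse embryonic stem (ES) cells. The 3 genes were followed here by their histone marks in 10 libraries of chromatin immunoprecipitation and sequencing (ChIP-seq). They were chosen by position in the mouse genome build mm9. The windows were chr17:35640001-35650000 for Pou5f1 (10 kb), chr3:34546001-34554000 for Sox2 (8 kb) and chr6:122655001-122667000 for Nanog (12 kb), which hold 15 bins of 2 kb. A read was counted where the midpoint of its deposited interval lay, and levels are given as RPM, the reads per 1e+06 autosomal reads. The rest of the genome, 253191 tiles of 10 kb on the autosomes and X with at least 1 read, served as the comparison.

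The line XT67E1, of strain C3H/Pgk*129, was profiled for H3K4me3 and H3K27me3 in undifferentiated cells, in cells given all-trans retinoic acid (atRA) for 4 days, and in embryoid bodies (EBs) grown for 10 days. The lines LF2 and E14, both of strain 129/Ola, were profiled for H3K27me3 in undifferentiated cells and in EBs of 10 days. Undifferentiated cells grew on gelatin in serum with leukaemia inhibitory factor (LIF), and EBs are aggregates formed after LIF is withdrawn. Each combination of line, state and mark was 1 library, so no comparison within a line had a replicate check.

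As background, Pou5f1 is a POU-domain factor and Sox2 an HMG-box factor, and both bind DNA side by side at many enhancers of ES cells. Nanog is a homeodomain factor that acts with them and helps ES cells to renew without differentiating. Pou5f1 and Nanog are normally silenced as ES cells differentiate, whereas Sox2 is also a factor of neural progenitors, a lineage that retinoic acid favours. H3K4me3 marks active and poised promoters, and H3K27me3 is placed by Polycomb repressive complex 2 on silenced developmental genes. Only histone marks were read, so the RNA of the 3 genes was not measured. EBs hold many cell types, and in such bulk samples a mark on fewer cells cannot be told apart from less of the mark per cell.

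The letters before the RefSeq start sites are shown because H3K4me3 in a promoter window is the main measurement. They come from the RefSeq table of the later build GRCm38.p6, plus strand, 250 bases before the first listed start of each gene, with motif letters in capitals. The positions are chr17:35505782-35506031 for Pou5f1, chr3:34649745-34649994 for Sox2 and chr6:122707239-122707488 for Nanog. No start site was placed in mm9, so the sequences are not aligned to the bins described below.
Pou5f1: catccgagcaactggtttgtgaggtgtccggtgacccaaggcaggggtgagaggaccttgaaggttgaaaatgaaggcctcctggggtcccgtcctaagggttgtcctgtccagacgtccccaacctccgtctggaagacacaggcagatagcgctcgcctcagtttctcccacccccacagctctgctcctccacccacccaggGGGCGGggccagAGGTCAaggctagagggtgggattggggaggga
Sox2: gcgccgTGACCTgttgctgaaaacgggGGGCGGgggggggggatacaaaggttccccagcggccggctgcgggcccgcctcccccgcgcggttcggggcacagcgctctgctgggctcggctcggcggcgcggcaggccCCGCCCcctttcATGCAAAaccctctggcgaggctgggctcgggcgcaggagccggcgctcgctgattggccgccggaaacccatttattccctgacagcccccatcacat
Nanog: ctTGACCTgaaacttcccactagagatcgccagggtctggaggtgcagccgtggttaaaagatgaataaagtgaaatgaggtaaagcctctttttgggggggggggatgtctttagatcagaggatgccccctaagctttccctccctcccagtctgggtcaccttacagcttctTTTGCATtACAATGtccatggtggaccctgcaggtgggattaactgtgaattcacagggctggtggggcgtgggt

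Both strands were searched in the 300 bases from 250 before to 50 after the start. The Nanog promoter held TTTGCAT, the complement of ATGCAAA, the first letters of the octamer that POU factors bind, at position −75 from the start. It lay 1 base from ACAATG, the complement of the SOX core CATTGT, at −67. The Sox2 promoter held ATGCAAA at −99 and GGGCGG, the GC box, at −223 and −111. The Pou5f1 promoter held a GC box at −45 and AGGTCA, a nuclear receptor half-site, at −33. AGGTCA was also found at −244 in the Sox2 promoter and at −248 in the Nanog promoter. Of 32851 RefSeq promoters of the same length, 4.63% held ATGCAAA, 12.6% CATTGT, 35.7% GGGCGG and 16.3% AGGTCA. The full octamer ATGCAAAT (1.74% of promoters) and the TATA box TATAAA (13.6%) were in none of these 3 promoters. These matches are descriptions of letters, and binding was not measured.

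The base composition of the 3 promoters differed. Sox2 had 66.3% GC and 27 CpG, with an observed-to-expected CpG ratio of 0.819. Pou5f1 had 62.7% GC, 11 CpG and a ratio of 0.374, close to the median of all promoters (0.384). Nanog had 54.3% GC, 4 CpG and a ratio of 0.192. Sox2 is thus the CpG-rich promoter of the 3, Nanog the CpG-poor one.

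The libraries compared with each other held equal numbers of deposited reads. These were 2252395 in each H3K4me3 library, 8380007 in each XT67E1 H3K27me3 library and 4531733 in each LF2 and E14 library, and 94.9% to 97.5% of them were autosomal. How concentrated the reads were differed. The richest 1% of 10 kb tiles held 12.6% of H3K4me3 reads in undifferentiated cells, 11.1% after atRA and 8.94% in EBs. For H3K27me3 this share was 5.11%, 6.46% and 5.32% in the same order in XT67E1, 7.42% and 5.96% in undifferentiated cells and EBs of LF2, and 7.61% and 8.82% in those of E14. No input library was used here.

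H3K4me3 fell at all 3 genes in both differentiations. The Pou5f1 window held 304 reads (141 RPM, exact Poisson 95% interval 126 to 158) in undifferentiated XT67E1 cells, 86 reads (39.9 RPM, 31.9 to 49.3) after atRA and 103 reads (47.8 RPM, 39.0 to 57.9) in EBs. At Nanog the counts were 284 reads (132 RPM, 117 to 148), 77 reads (35.7 RPM, 28.2 to 44.7) and 92 reads (42.7 RPM, 34.4 to 52.3). At both genes the undifferentiated library was the highest, and the intervals of the differentiated libraries did not overlap it. The Sox2 window held 316 reads (147 RPM, 131 to 164), 152 reads (70.6 RPM, 59.8 to 82.7) and 148 reads (68.6 RPM, 58.0 to 80.6). Sox2 also lost H3K4me3 but kept more of it than the other two. All intervals cover counting error only.

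**Figure D1:**
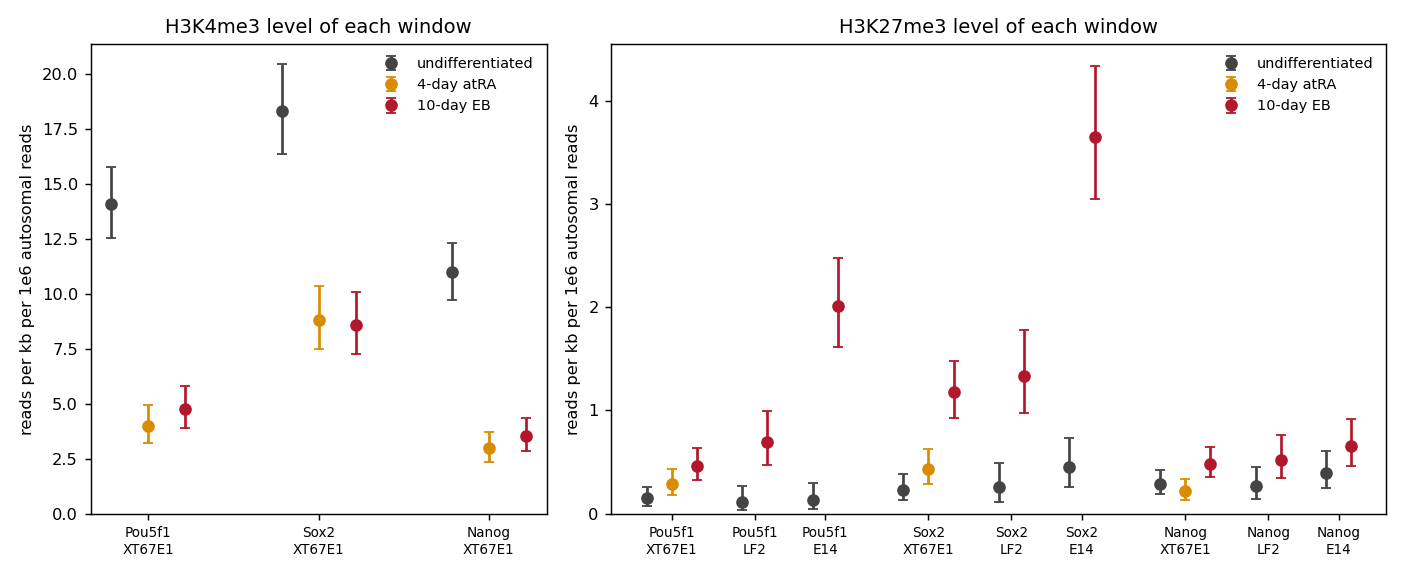
Level of each window in each library, in reads per kb of window per 1e+06 autosomal reads, for H3K4me3 (left) and H3K27me3 (right). Points are single libraries and bars are exact Poisson 95% intervals of the count. H3K4me3 is highest in undifferentiated cells at each gene, and H3K27me3 is highest in EBs, most of all at Sox2 (3.65) and Pou5f1 (2.01) in E14.

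The log2 ratio over undifferentiated cells, with 1 read added to each count, was −1.81 (95% interval −2.18 to −1.47) at Pou5f1 after atRA and −1.55 (−1.90 to −1.23) in EBs. At Nanog it was −1.87 (−2.26 to −1.51) and −1.62 (−1.98 to −1.28). The Sox2 ratios were −1.05 (−1.34 to −0.77) and −1.09 (−1.39 to −0.81). A window was called changed where the ratio reached 2-fold and its exact conditional binomial interval excluded 1. By that rule the 3 windows were lower in both differentiations, 6 calls of 6. In the same comparisons, 4.44% of 10 kb tiles were called lower after atRA and 3.18% in EBs.

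The typical marked tile also held fewer H3K4me3 reads in EBs, and the size of the drop at the 3 genes depends on whether that is taken as the reference. Tiles of 2 kb with at least 20 reads had a median log2 ratio of −0.06 after atRA and −0.33 in EBs. Scaled to that median, the EB ratios were −1.22 (−1.57 to −0.90) at Pou5f1 and −1.28 (−1.65 to −0.95) at Nanog. The Sox2 ratios became −0.99 (−1.29 to −0.71) after atRA and −0.76 (−1.05 to −0.48) in EBs, which no longer reach 2-fold. More strongly marked tiles, with at least 100 reads, had a median of −0.06 after atRA and −0.55 in EBs. Of these, 12.9% had a log2 ratio of −1 or below in EBs. Scaling to that lower EB median was not run, and it would make the EB drops at all 3 genes smaller still.

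The smaller loss at Sox2 does not depend on scaling, since the windows were compared within the same libraries. After atRA the log2 change at Pou5f1 minus that at Sox2 was −0.77 (95% interval −1.21 to −0.32), and in EBs it was −0.47 (−0.90 to −0.04). The Sox2 change exceeded the Nanog change by 0.83 (0.37 to 1.29) after atRA and by 0.53 (0.09 to 0.97) in EBs. Pou5f1 and Nanog changed by amounts whose difference had an interval including 0, at 0.06 (−0.44 to 0.56) and 0.06 (−0.40 to 0.53). Scaled to autosomal reads, no H3K4me3 difference between atRA and EBs was separated from counting error. The EB level over the atRA level was 1.20 (0.89 to 1.61) at Pou5f1, 0.97 (0.77 to 1.23) at Sox2 and 1.19 (0.87 to 1.64) at Nanog. Scaling to the median of marked 2 kb tiles adds 0.06 to log2 ratios after atRA and 0.33 in EBs. The EB over atRA ratios would then be higher, so this result may depend on the scaling. Their intervals under it were not computed.

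**Figure D2:**
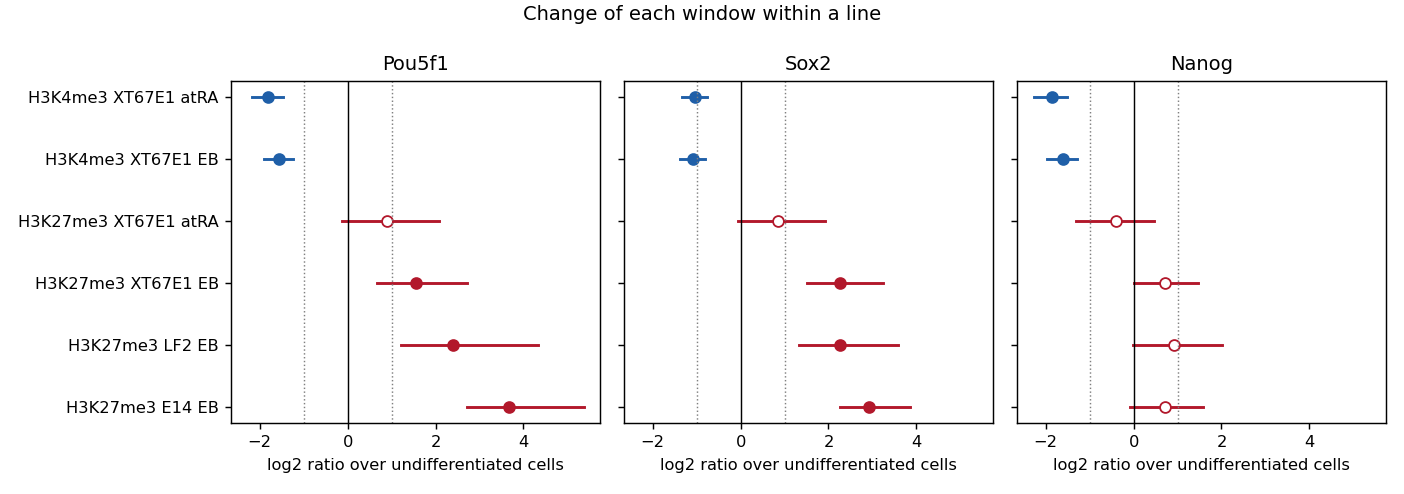
Log2 ratio of RPM over undifferentiated cells of the same line in each of 6 comparisons (rows) for each gene (panels), with exact conditional binomial 95% intervals. Filled points were called at 2-fold or more (dotted lines). H3K4me3 ratios (blue) lie below 0 at all 3 genes, and H3K27me3 ratios in EBs (red) are called in the 3 lines at Pou5f1 and Sox2 and in none at Nanog.

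Per kb of window, the order of H3K4me3 levels in undifferentiated cells was Sox2 (18.3 RPM per kb), Pou5f1 (14.1) and Nanog (11.0), with every neighbouring pair separated beyond counting error. After atRA it was Sox2 (8.82), Pou5f1 (3.99) and Nanog (2.98), and the last pair was not separated, at a ratio of 1.34 (0.97 to 1.85). In EBs the levels were 8.58, 4.78 and 3.55, and Pou5f1 was 1.34 times Nanog (1.00 to 1.80, the lower bound just above 1). The windows were drawn around the genes and differ in how much unmarked sequence they hold, which these ratios include. All 3 windows stayed far above the median tile in each state. At its lowest, after atRA, the Nanog window exceeded 98.8% of the autosomal 10 kb tiles per kb, and the Pou5f1 window 99.4%.

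Against the sequence from 10 to 50 kb outside each window, H3K4me3 per kb was 20.4 times higher (95% interval 16.5 to 25.5) at Pou5f1 in undifferentiated cells, 7.64 times (5.62 to 10.4) after atRA and 9.58 times (7.13 to 12.9) in EBs. At Sox2 the ratio was 28.7 (23.1 to 36.0), 20.8 (15.7 to 27.9) and 14.5 (11.2 to 18.9). At Nanog it was 5.59 (4.75 to 6.56), 2.09 (1.59 to 2.71) and 2.47 (1.93 to 3.15). Against the adjacent 10 kb on each side instead, the ratios in the same order were 17.9, 4.20 and 4.04 at Pou5f1, 13.9, 10.9 and 6.73 at Sox2 and 15.8, 7.13 and 4.79 at Nanog. With these flanks Nanog stood above Sox2 in undifferentiated cells, with overlapping intervals, so the order of the genes in this measure depends on the flank. The ratio was lower after differentiation with either flank. After atRA the Sox2 interval overlapped the undifferentiated one with either flank (adjacent flanks, 7.48 to 16.2 against 10.4 to 18.7). The Nanog interval did so with the adjacent flanks (4.23 to 12.7 after atRA). The far flank's own log2 ratio after atRA was −0.58 (−1.04 to −0.15) at Sox2, −0.46 (−0.70 to −0.22) at Nanog and −0.40 (−0.81 to 0.01) at Pou5f1. In EBs it was −0.11 (−0.51 to 0.29), −0.45 (−0.69 to −0.21) and −0.46 (−0.89 to −0.06). The low values at Nanog against the far flank go with a second H3K4me3 peak in its flank. That bin, chr6:122691001-122693000, 30 to 32 kb from the window's centre, held 126 reads in undifferentiated cells, 97 after atRA and 102 in EBs. Its log2 ratios of −0.37 (−0.77 to 0.02) and −0.30 (−0.70 to 0.08) were not separated from 0, next to −1.87 and −1.62 in the Nanog window. Beside Pou5f1, the bin chr17:35653001-35655000, 8 to 10 kb from the centre, held 15, 21 and 23 reads. A farther one, chr17:35691001-35693000, held 39, 28 and 17 reads and was lower in EBs, at −1.15 (−2.11 to −0.34). In the Nanog flank, the step from 40 to 50 kb to the right of the window was called lower after atRA, from 68 to 33 reads, at −1.02 (−1.69 to −0.42). These neighbouring regions were chosen after their values were seen.

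**Figure D3:**
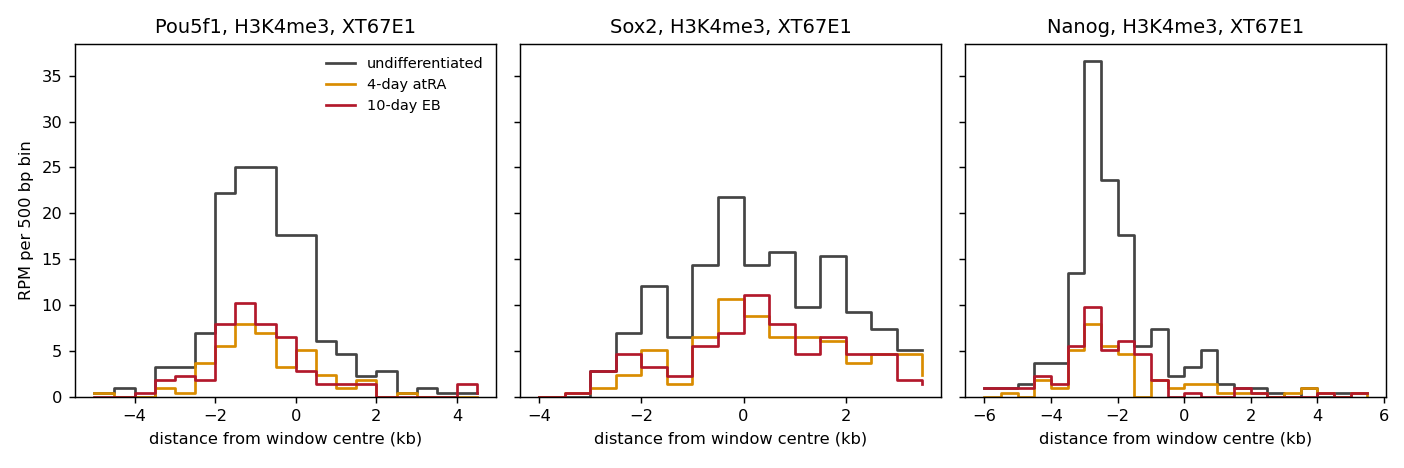
H3K4me3 in bins of 500 bp across the 3 windows in XT67E1, in RPM, against the distance from the window's centre in kb. Each line is 1 library. The undifferentiated profile (grey) is the highest over the peak of Pou5f1 and Nanog, and the differentiated profiles keep a smaller peak at the same place.

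Within the windows, most H3K4me3 reads sat in 2 bins per gene. At Pou5f1 the bin with most reads, chr17:35644001-35646000, held 143 reads in undifferentiated cells, 38 after atRA and 40 in EBs, and the bin before it held 124, 38 and 48. At Nanog, chr6:122657001-122659000 held 167, 42 and 47 reads, and the bin after it 71, 16 and 27. Each of these 4 bins was called lower in both differentiations. Sox2 had a broader profile, with 118, 51 and 39 reads in chr3:34548001-34550000 and 119, 60 and 65 reads in chr3:34550001-34552000. Of this pair, the first bin was called lower in both differentiations and the second in neither, at −0.97 (−1.46 to −0.53) and −0.86 (−1.33 to −0.42). The Sox2 bin after them, chr3:34552001-34554000, held 58, 33 and 27 reads. It was called lower in EBs alone, at −1.08 (−1.82 to −0.42).

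Of the 15 bins, 11 held at least 20 H3K4me3 reads in the 2 libraries and could be called. After atRA 9 of the 11 were lower, against 12.1% of all 2 kb tiles tested. They were 3 of 3 at Pou5f1, 2 of 4 at Sox2 and 4 of 4 at Nanog. In EBs 8 of the 11 were lower, against 13% of tiles, and they were 3 of 3, 2 of 4 and 3 of 4. Besides the peak bins these included edge bins with few reads, such as chr6:122661001-122663000 of Nanog, which held 23, 8 and 3 reads. At Pou5f1 the edge bin chr17:35646001-35648000 held 22, 7 and 6 reads. The first bins of Sox2 (21 reads to 8) and Nanog (15 to 5) were called lower after atRA alone. No bin was higher in H3K4me3.

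H3K27me3 rose in EBs at Pou5f1 and Sox2 in each of the 3 lines, from few reads. At Pou5f1 the undifferentiated libraries held 12 reads in XT67E1 (1.50 RPM), 5 in LF2 (1.15 RPM) and 6 in E14 (1.36 RPM). The EB libraries held 37 (4.65 RPM), 30 (6.96 RPM) and 89 (20.1 RPM). All 3 EB values lay above all 3 undifferentiated ones, and E14 stood highest. At Sox2 the undifferentiated counts were 15 (1.87 RPM), 9 (2.06 RPM) and 16 (3.63 RPM), and those of EBs 75 (9.43 RPM), 46 (10.7 RPM) and 129 (29.2 RPM). Sox2 showed the same separation, again with E14 at the top.

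Nanog showed a smaller rise. Its window held 28 reads (3.49 RPM) in undifferentiated XT67E1, 14 (3.21 RPM) in LF2 and 21 (4.76 RPM) in E14. In EBs it held 46 (5.78 RPM), 27 (6.27 RPM) and 35 (7.92 RPM). All 3 EB values again lay above all 3 undifferentiated ones, with E14 at the top. The EB value was the higher one in every line, but by less than 2-fold.

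Within lines, the log2 ratio in EBs at Pou5f1 was 1.56 (0.67 to 2.71) in XT67E1, 2.39 (1.22 to 4.33) in LF2 and 3.68 (2.71 to 5.37) in E14. At Sox2 it was 2.26 (1.52 to 3.24), 2.25 (1.32 to 3.59) and 2.93 (2.25 to 3.86). At Nanog it was 0.71 (0.02 to 1.46), 0.92 (−0.02 to 2.01) and 0.71 (−0.09 to 1.59). Pou5f1 and Sox2 were therefore called higher in 3 of 3 lines and Nanog in none. The share of all 10 kb tiles called higher was 2.51% in XT67E1, 4.69% in LF2 and 2.06% in E14. Scaled to the reads of tiles with coverage up to the median, the number of tiles called went from 6025 to 3904 in XT67E1, from 8956 to 3993 in LF2 and from 4138 to 6557 in E14, so that LF2 no longer had more than E14. The calls at the 3 windows did not change with it.

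Across the 3 lines, limma with the line as a block gave a log2 change in EBs of 2.54 (SE 0.313) at Pou5f1, with a Benjamini-Hochberg adjusted p of 5.66e-06 over 227427 windows and tiles. For Sox2 limma gave 2.48 (SE 0.248) and an adjusted p of 4.29e-08. Both were higher in 3 of 3 lines, with an SD over the lines of 1.07 at Pou5f1 and 0.391 at Sox2. For Nanog limma gave 0.78 (SE 0.253), unadjusted p 0.0036 and adjusted p 0.311, which did not pass, although its value was higher in 3 of 3 lines (SD 0.121). Of all features tested, 0.0928% rose, which is 211, and 91 fell. Pou5f1 and Sox2 stood 12th and 4th by p.

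Each line gave 1 library per state, and limma's p-values rest mostly on the variation pooled over all tiles. The SE of 0.313 at Pou5f1 is set by that pooling more than by its SD of 1.07 over the lines. An exact sign-flip test over 3 lines gave 0.25 for each gene, the smallest p it can give.

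The rise was larger at Sox2 than at Nanog in each line. The difference in log2 change was 1.61 (0.56 to 2.65) in XT67E1, 1.41 (0.02 to 2.80) in LF2 and 2.27 (1.19 to 3.36) in E14. Pou5f1 exceeded Nanog by 3.15 (1.73 to 4.58) in E14. In XT67E1 and LF2 the difference was 0.91 (−0.25 to 2.07) and 1.64 (−0.02 to 3.29), with intervals that include 0. Pou5f1 and Sox2 were not separated from each other in any line.

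Before differentiation the Pou5f1 window was poorer in H3K27me3 than most of the genome. It exceeded 7.48% of the autosomal 10 kb tiles in XT67E1, 6.20% in LF2 and 4.99% in E14. In EBs it exceeded 67.7%, 88.1% and 99.0%. The Sox2 window moved from 22.8%, 38.4% and 67.0% to 98.1%, 98.3% and 99.6%. Nanog moved from 36.7%, 38.4% and 58.0% to 71.5%, 76.2% and 89.2%. Sox2 thus exceeded at least 98.1% of tiles in the EBs of every line, Pou5f1 did so in E14 alone and Nanog in no line.

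The EB levels differed between lines at Pou5f1 and Sox2. The Pou5f1 level in E14 EBs was 4.33 times that of XT67E1 EBs (95% interval 2.92 to 6.53) and 2.89 times that of LF2 (1.89 to 4.53). At Sox2 the same ratios were 3.09 (2.31 to 4.17) and 2.73 (1.94 to 3.92). At Nanog they were 1.37 (0.86 to 2.17) and 1.26 (0.74 to 2.17). LF2 and XT67E1 EBs were not separated at any of the 3 genes. In undifferentiated cells no pair of lines was separated at any of them.

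The log2 change at Pou5f1 was larger in E14 than in XT67E1 by 2.25 (0.73 to 3.77), and no other pair of lines differed in its change at any of the 3 genes beyond counting error. E14 EBs also had the highest share of H3K27me3 reads in the richest tiles (8.82%), and the part of this in the difference was not tested. The lines differ in strain, and as background E14 is a male line while XT67E1 and LF2 are female. With 1 library each, line, strain, sex and library cannot be told apart.

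After 4 days of atRA, no H3K27me3 ratio of the 3 windows was separated from 1 in XT67E1. The Pou5f1 window held 23 reads against 12, a log2 ratio of 0.89 (−0.13 to 2.08). Sox2 held 28 against 15, at 0.86 (−0.05 to 1.91), and Nanog 21 against 28, at −0.40 (−1.30 to 0.45). Compared within the same libraries, the log2 change at Pou5f1 exceeded that at Nanog by 1.35 (0.06 to 2.65), and that at Sox2 did so by 1.32 (0.10 to 2.53). None of the 3 was called, where 0.876% of 10 kb tiles were called higher. Scaled instead to the reads of tiles with coverage up to the median, Pou5f1 reached 1.03 (0.02 to 2.23) and Sox2 1.01 (0.10 to 2.06), so both would then be called. That scaling also raised the number of 10 kb tiles called higher from 2080 to 4150 of 237505.

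H3K4me3 at these windows was lower after atRA, with 284 to 316 reads in undifferentiated cells. The H3K27me3 ratios rest on only 12 to 28 undifferentiated reads, and which mark changed first was not tested. Scaled to autosomal reads, the H3K4me3 level after atRA was not separated from that in EBs. H3K27me3 in EBs exceeded that after atRA by 2.70 times (1.73 to 4.33) at Sox2 and 2.21 times (1.29 to 3.89) at Nanog. At Pou5f1 the ratio was 1.62 (0.94 to 2.86), which was not separated from 1. The atRA and EB libraries differ in both treatment and time, and those cannot be told apart.

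In the Pou5f1 window most EB reads lay in the 2 bins that held most H3K4me3. The richest H3K27me3 bin was the neighbour of the richest H3K4me3 bin of undifferentiated cells. In XT67E1 EBs it was also the richest in H3K4me3, with 48 reads against 40 in the next bin. The bin with most H3K27me3 reads, chr17:35642001-35644000, went from 2 to 16 reads in XT67E1 (10 after atRA), from 1 to 13 in LF2 and from 4 to 41 in E14. The next bin, chr17:35644001-35646000, went from 5 to 11, from 1 to 7 and from 0 to 28. The first bin of the window went from 2 to 4, from 1 to 6 and from 1 to 10, and the fourth from 3 to 4, from 1 to 2 and from 0 to 7. The last went from 0 to 2, from 1 to 2 and from 1 to 3. In each line the bin with most EB reads was chr17:35642001-35644000.

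At Sox2 the gain covered the whole window. Its 4 bins in order held 18, 14, 19 and 24 reads in XT67E1 EBs, where they had held 3, 4, 3 and 5 in undifferentiated cells. In E14 they held 24, 35, 44 and 26 reads in EBs and 1, 7, 7 and 1 before. In LF2 they held 11, 9, 14 and 12 in EBs and 1, 4, 2 and 2 before. Of the 4 bins, chr3:34550001-34552000 had most reads over the H3K27me3 libraries.

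No Nanog bin passed a call in H3K27me3, and in LF2 and E14 none held enough reads to be called. The bin chr6:122657001-122659000, where H3K4me3 peaked, went from 7 to 17 reads in XT67E1 (5 after atRA), from 2 to 12 in LF2 and from 2 to 16 in E14. The bin chr6:122661001-122663000 went from 11 to 9, from 3 to 4 and from 7 to 4. The last bin went from 2 to 6 in XT67E1 and LF2 and stayed at 4 in E14, and the bin chr6:122659001-122661000 went from 4 to 5, from 3 to 2 and from 1 to 6. Only chr6:122657001-122659000 moved in the same direction in all 3 lines.

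A bin needed 20 or more reads over the pair of libraries to be called. In XT67E1 EBs 3 of 3 such bins at Sox2 were higher and 0 of 2 at Nanog, against 2.23% of 2 kb tiles. The main Nanog bin had a log2 ratio of 1.18 (−0.05 to 2.80) in XT67E1 EBs. In LF2 and E14 EBs, where it was below the read minimum, its ratio was 2.13 (0.44 to 5.80) and 2.50 (0.91 to 6.16). In E14 EBs 2 of 2 bins at Pou5f1 and 4 of 4 at Sox2 were higher, against 9.11% of tiles. No bin reached 20 reads in LF2 or after atRA.

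A limma fit on 2 kb tiles, added after the Nanog bin had been seen, tested 8 of the 15 bins. In it 0.0307% of all bins and tiles rose. The 4 bins that passed were chr17:35642001-35644000 of Pou5f1 with a log2 change of 2.80 (SE 0.402, limma adjusted p 9.39e-04) and 3 of the 4 Sox2 bins with changes of 2.39 to 2.83 and limma adjusted p from 0.00173 to 0.00307. The other Pou5f1 bin had 2.63 (SE 0.570) and a limma adjusted p of 0.0772, and the remaining Sox2 bin 1.59 (SE 0.392) and 0.171. The main Nanog bin had 1.94 (SE 0.411) and a limma adjusted p of 0.0671, and was higher in 3 of 3 lines. It did not pass.

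**Figure D4:**
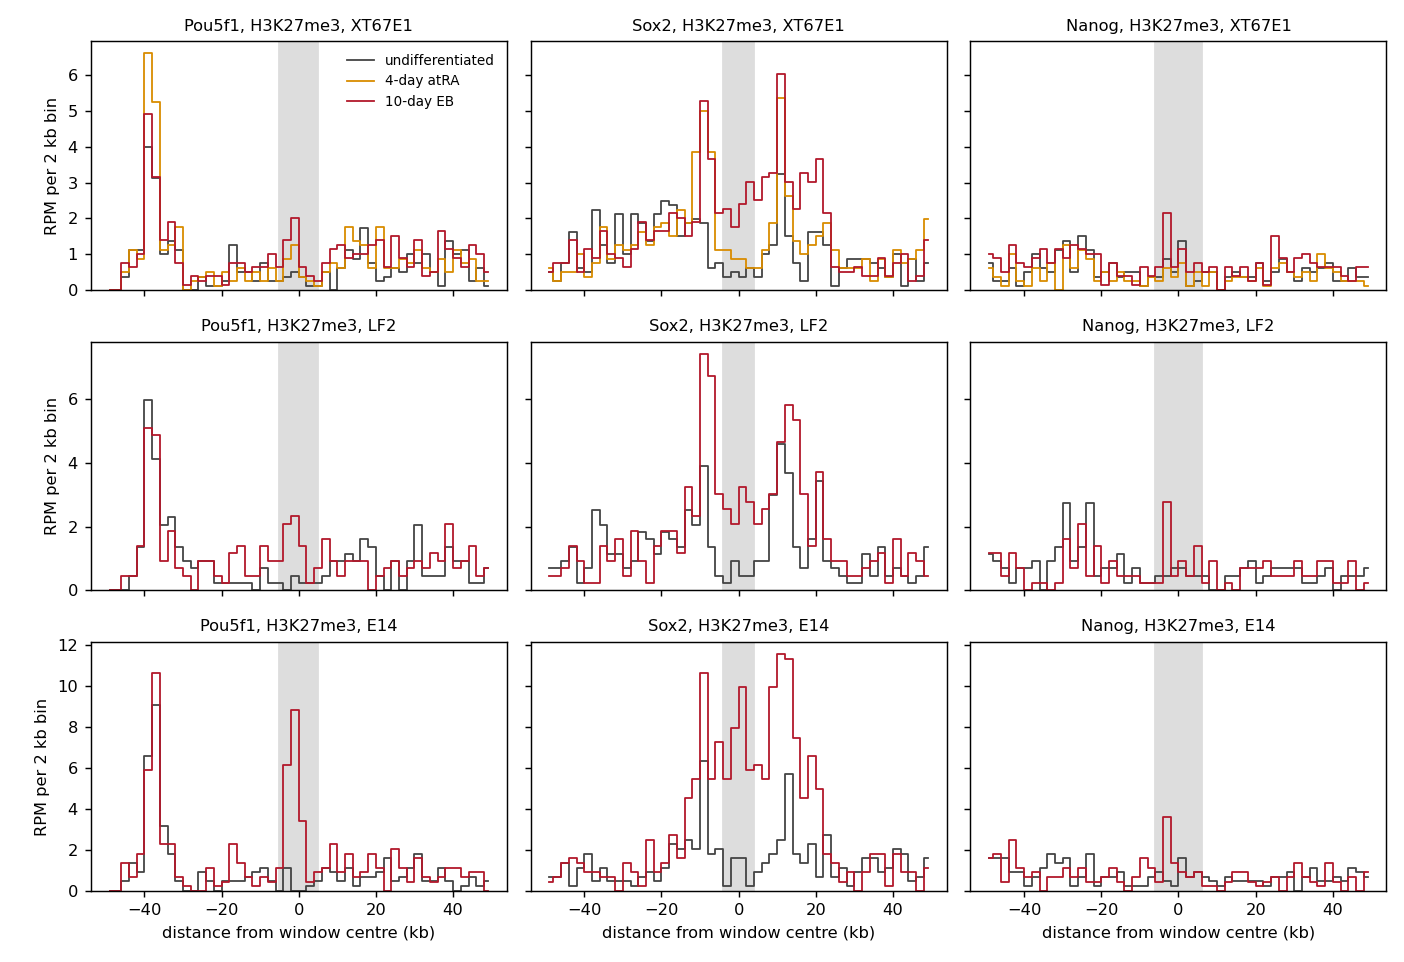
H3K27me3 in bins of 2 kb within 50 kb of each window's centre, in RPM, by line (rows) and gene (columns), with the window shaded grey. Each line of the plot is 1 library, and atRA exists for XT67E1 only. In EBs the Pou5f1 window stands clear of its flanks in E14 alone. The Sox2 window in EBs lies below its adjacent 10 kb flanks in XT67E1 and LF2 and level with them in E14. Against the sequence from 10 to 50 kb outside, it lies above in XT67E1 (1.94 times), LF2 (2.29) and E14 (4.78). The Nanog window holds 27 to 46 reads in EBs and lies above its adjacent 10 kb flanks in all 3 lines.

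Sox2 lay in a gap between H3K27me3 shoulders before differentiation. In undifferentiated cells the 10 kb to its left and right held 57 and 59 reads in XT67E1, 45 and 57 in LF2 and 65 and 54 in E14. Per kb the window held 0.323 times as much as these flanks in XT67E1 (95% interval 0.175 to 0.556), 0.221 times in LF2 (0.098 to 0.435) and 0.336 times in E14 (0.186 to 0.569). In EBs the ratio was 0.727 (0.554 to 0.943), 0.653 (0.462 to 0.908) and 0.940 (0.762 to 1.15). The ratio was thus higher in the EBs of all 3 lines, with intervals that did not overlap in LF2 and E14 and met at their ends in XT67E1. In E14 EBs the window was no longer separated from these adjacent flanks. After atRA the ratio stayed at 0.320 (0.208 to 0.475). The reading depends on the flank. Against the sequence from 10 to 50 kb outside, the ratio in undifferentiated XT67E1, LF2 and E14 was 0.442 (0.245 to 0.740), 0.469 (0.211 to 0.909) and 0.808 (0.453 to 1.35). With that flank the EB window stood above, at 1.94 (1.49 to 2.49), 2.29 (1.62 to 3.17) and 4.78 (3.84 to 5.91). In GRCm38.p6, Sox2 lies inside Sox2ot, a long noncoding RNA gene.

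The shoulders themselves gained H3K27me3. The left 10 kb, chr3:34536001-34546000, went from 57 to 126 reads after atRA, a log2 ratio of 1.13 (0.68 to 1.62), and to 115 in XT67E1 EBs, at 1.01 (0.55 to 1.51). In EBs it went from 45 to 98 reads in LF2 and from 65 to 147 in E14, at 1.12 (0.62 to 1.68) and 1.16 (0.74 to 1.62). The left shoulder was thus called higher after atRA as well as in EBs, while the gene's own window did not reach a call after atRA.

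The right 10 kb, chr3:34554001-34564000, held 59, 93 and 143 reads in undifferentiated cells, atRA and EBs of XT67E1. It went from 57 to 78 in LF2 EBs, at 0.46 (−0.04 to 0.99), and from 54 to 196 in E14 EBs, at 1.84 (1.42 to 2.32). The next 10 kb to the right rose from 44 to 114 in XT67E1 EBs, from 35 to 65 in LF2 and from 39 to 112 in E14. From 20 to 30 kb to the right, the counts were 27 and 21, 12 and 15, and 20 and 16. The gain therefore ended within 20 to 30 kb on that side. On the left, the step from 10 to 20 kb went from 79 to 70, from 33 to 28 and from 30 to 40 reads, with no call. These steps outwards were chosen after the reads around Sox2 had been seen.

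Pou5f1 and Nanog had no such shoulders. In the 20 kb flanking the Pou5f1 window there were 39, 24 and 34 reads in undifferentiated XT67E1, LF2 and E14, and 66, 39 and 42 in EBs. The window held 0.615 (0.293 to 1.20), 0.417 (0.124 to 1.11) and 0.353 (0.121 to 0.850) times the flanks per kb before differentiation. In EBs it held 1.12 (0.729 to 1.70), 1.54 (0.923 to 2.54) and 4.24 (2.90 to 6.27) times, so a local peak stood clear of its flanks in E14 alone. At Nanog the ratio in EBs was 2.40 (1.49 to 3.89), 3.21 (1.63 to 6.63) and 2.33 (1.36 to 4.07), and in undifferentiated cells 1.56 (0.896 to 2.69), 1.37 (0.626 to 2.96) and 1.67 (0.866 to 3.21). The Nanog window thus stood above these adjacent flanks in the EBs of every line and was not separated from them before. Within each line the intervals before and after overlapped. Against the sequence from 10 to 50 kb outside, the Nanog ratio in EBs was 1.30 (0.93 to 1.79), 1.70 (1.07 to 2.61) and 1.69 (1.13 to 2.47). With that flank it was thus not separated in XT67E1. The undifferentiated Pou5f1 window lay below that flank in XT67E1, LF2 and E14, at 0.398 (0.203 to 0.709), 0.241 (0.077 to 0.574) and 0.257 (0.093 to 0.569).

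A nearby H3K27me3 peak can be set beside Pou5f1. The bin chr17:35605001-35607000, 38 to 40 kb to the left of the window's centre, was the richest H3K27me3 bin within 50 kb outside the window. It held 32 reads in undifferentiated XT67E1, 53 after atRA and 39 in EBs. In LF2 it went from 26 to 22 reads and in E14 from 29 to 26. The 10 kb window of Pou5f1 went from 6 to 89 reads in E14 EBs, while this single 2 kb bin did not rise. How far the library itself contributes was not tested. The same bin around Nanog, chr6:122631001-122633000, held 5 to 12 reads in every library.

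The 3 genes followed each other across libraries to different degrees. Over the 10 libraries, centred within each mark, log2 RPM correlated at r = 0.960 between Pou5f1 and Sox2 and at 0.768 for Nanog with either. The 10 points share lines and libraries, and these values are a description. The 10 kb tiles most like Pou5f1 were chr4:129050001-129060000 (r = 0.984), chr10:60880001-60890000 (0.980) and chr5:117860001-117870000 (0.973). Those most like Sox2 were chr14:71020001-71030000 (0.980), chr7:3330001-3340000 (0.979) and chr7:3410001-3420000 (0.973). Those most like Nanog were chr6:34290001-34300000 (0.973), chr3:121280001-121290000 (0.969) and chr4:132590001-132600000 (0.962). The first of the Pou5f1 tiles held 105, 39 and 49 H3K4me3 reads in the 3 XT67E1 states and went from 9 to 85 H3K27me3 reads in E14.

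Reads at Pou5f1 and Nanog carry a further uncertainty. The RefSeq table names 5 pseudogenes after Pou5f1 and 2 after Nanog, and none after Sox2. How the submitters treated reads that match several places is not given in the sources used here. The neighbours of Pou5f1 in GRCm38.p6 are Tcf19, Cchcr1 and the long noncoding RNA gene Gm32362, and that of Nanog is the pseudogene Gm10224. Which of the bins hold parts of these neighbours was not placed in mm9.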

How the data were processed

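Each row of a deposited file is the position of 1 read, as a 200 bp interval without strand or score, in build mm9 per the submitters' processing notes. No interval occurred more than once in a file. For the aligner, the read filters, the interval length and the equal totals, the method is not given in the sources used here. Midpoints were counted in windows, 2 kb bins and 10 kb tiles and scaled to reads on the 19 autosomes. Log2 ratios used a pseudocount of 1 read, which understates changes of low counts. Calls needed 20 reads in the 2 libraries, 2-fold and a 95% interval excluding 1. EBs against undifferentiated cells over the 3 lines were tested with limma 3.58.1 in R 4.3.3 (trend, line as block, at least 60 reads over 6 libraries, two-sided, adjusted p under 0.05). The pairs are the same cell line. Their deviations from the state means correlated at 0.185 (XT67E1), 0.0844 (LF2) and 0.240 (E14). The fit had 43.3 degrees of freedom, most from pooling over tiles. The call rule and the fit were tested on simulated data. Named bins are the bin with most reads in each window and mark, and called bins. Alike tiles lay at least 100 kb away and held at least 100 H3K27me3 and 30 H3K4me3 reads. The genes, windows and lists were chosen with earlier results of these data known. Other genes of the network were not analysed here, since no mm9 annotation was used. Counting used Python 3.11.15 with numpy 2.4.6, scipy 1.17.1 and pandas 2.3.3.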

Additional observations from a re-analysis of the deposited data

How the results depend on the processing

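The 114 recomputed log2 ratios of the windows kept their direction, and 112 stayed within the counting interval of the value given above. The other two, under scaling to the median of marked 2 kb tiles (chosen after seeing the data), were −1.22 for Pou5f1 and −0.757 for Sox2 in H3K4me3 of EBs, as that scaling adds 0.333 to each. The limma changes of the 3 genes kept their direction and their side of the threshold in 30 of 30 recomputations. Without a replicate block the limma adjusted p was 0.0200 at Pou5f1, 0.0142 at Sox2 and 0.945 at Nanog, the highest of each gene's recomputations. The lowest were 5.77e-13, 5.47e-14 and 0.251. Leaving out each line, limma gave 1.97 to 3.03 at Pou5f1, 2.26 to 2.60 at Sox2 and 0.71 to 0.81 at Nanog. In the plain 10 kb tile with the largest overlap with each window, Sox2 had 1.69 and Nanog 0.21. The Sox2 window was split evenly between neighbouring tiles, and the left one, which holds part of the left shoulder, was taken. The Nanog tile left out chr6:122657001-122659000, the bin where H3K4me3 peaked. Calls at the 3 windows changed under 2 scalings, as given with the results. Background scaling shifted H3K27me3 ratios by 0.147 after atRA and by −0.101, −0.219 and 0.101 in EBs of XT67E1, LF2 and E14, and H3K4me3 ratios in EBs by −0.110. With bins shifted by 1 kb, 5 bins of the windows were higher in XT67E1 EBs and 1 in LF2 EBs. The limma count of features that rose was 11 without a replicate block, 345 with voom, 116 with background scaling, 122 with no read minimum and 156 to 466 leaving out each line, the highest without E14. The count that fell was 0 without a replicate block, 227 with voom, 178 with a pseudocount of 5 reads, 56 with background scaling, 34 with no read minimum and 65 to 167 leaving out each line, with 167 without XT67E1 and 165 without E14. The cause of these shifts was not tested. Of 56 recounts of called tiles, 26 moved by over 1.5 times. Undifferentiated windows held 5 to 28 H3K27me3 reads, which leaves wide intervals for their ratios.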
